A study of Caenorhabditis elegans with 4 samples.

Results

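The Hedgehog-related and Patched-related genes of *C. elegans* were taken from the gene counts table by symbol: every gene named wrt, grd, grl, hog, qua, ptr or ptc with a number. The rule found 85 of 20380 genes. Of these, 59 encode ligand-like proteins (10 wrt, 16 grd, 31 grl, 1 hog and 1 qua gene) and 26 encode receptor-like proteins (24 ptr and 2 ptc genes). The symbol rule used no measured value. A total of 84 members had at least 1 read and 76 passed the filter on low counts, namely 50 ligand-like and all 26 receptor-like genes. The other 9 members, all grl genes (grl-9, grl-11, grl-20, grl-23, grl-25, grl-26, grl-28, grl-29 and grl-30), were too low to be tested, and grl-29 had no read.

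In many animals, secreted Hedgehog proteins bind the membrane protein Patched and thereby release the activator Smoothened and GLI transcription factors. Nematodes lack a typical Hedgehog protein and Smoothened, but carry enlarged families of secreted proteins named warthog (wrt), groundhog (grd), ground-like (grl), hedgehog-like with only a Hog domain (hog) and quahog (qua), some of which end in the self-cleaving Hog domain of Hedgehog. They also carry Patched proteins (ptc) and Patched-related proteins (ptr) with a sterol-sensing domain, and many members of both kinds act in the epidermis, in glia and in the making and shedding of the cuticle.

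Poly(A) RNA was sequenced from whole wild-type N2 animals that fed at 20°C, from the L1 to the L4 stage, on bacteria carrying either an *xrn-2* RNAi clone, against the nuclear exoribonuclease XRN2, or the same vector without an insert (mock). There were 2 libraries labelled *xrn-2(RNAi)* and 2 labelled mock, numbered as replicates 1 and 2. RNAi animals grow slowly and were collected after a longer time on the food, at mid-L4 by vulval morphology in the methods. The methods also compared each library with an L4 time course and called the replicate 1 pair well matched in developmental time and the replicate 2 pair less well matched, with both of its libraries later than those of replicate 1 and mock replicate 2 the latest. The labels do not say whether the replicates came from separate cultures, so the p-values measure only the spread between these libraries, technical spread included.

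The libraries held 48451504 and 43324340 counted reads in *xrn-2(RNAi)* replicates 1 and 2, against 41105706 and 41998429 in mock. The mRNA of the targeted gene did not follow the labels. *xrn-2* itself had 5265 (replicate 1) and 6032 (replicate 2) scaled reads under the *xrn-2(RNAi)* label, against 4247 and 6192 in mock. The label, and not a measured loss of the mRNA, thus defines the condition here. The paper reports that inactivation of XRN2 raises its own mRNA, so this level does not measure how far XRN2 was depleted. A scaled read count is the read count brought to the mean library total of 43719995. The mock libraries were the least alike of any pair of libraries. Across 13967 genes, which are not independent, the log2 values of the mock libraries correlated at r = 0.776. The libraries labelled *xrn-2(RNAi)* correlated with each other at r = 0.938. Against mock replicates 1 and 2, *xrn-2(RNAi)*-labelled replicate 1 had r = 0.918 and 0.822, and replicate 2 had r = 0.804 and 0.847. The 10 most abundant genes took 9.75% of the reads of mock replicate 2, against 4.69% to 5.27% in the others. Whole animals were used, so fewer cells of a type and less RNA per cell cannot be told apart.

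Both groups of genes were most abundant in mock replicate 1 and least abundant in mock replicate 2, with the libraries labelled *xrn-2(RNAi)* in between and closer to each other. The ligand-like genes summed to 126236 and 98170.4 scaled reads in *xrn-2(RNAi)*-labelled replicates 1 and 2, against 304059 and 21363 in mock. Mock replicate 2 thus held 7.03% of the ligand-like reads of mock replicate 1, while *xrn-2(RNAi)*-labelled replicate 2 held 77.8% of those of replicate 1. The receptor-like genes summed to 82065 and 87894 scaled reads in the libraries labelled *xrn-2(RNAi)*, against 122890.4 and 37105 in mock, which puts mock replicate 2 at 30.2% of mock replicate 1. By condition, the ligand-like sums were 112203 ± 19846 with *xrn-2* RNAi and 162711 ± 199896 in mock, and the receptor-like sums 84979.6 ± 4122 with *xrn-2* RNAi and 79998 ± 60659 in mock (SD, n = 2 each). The conditions overlapped in both groups, and the mock SD exceeded the difference between the means in both.

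**Figure D1:**
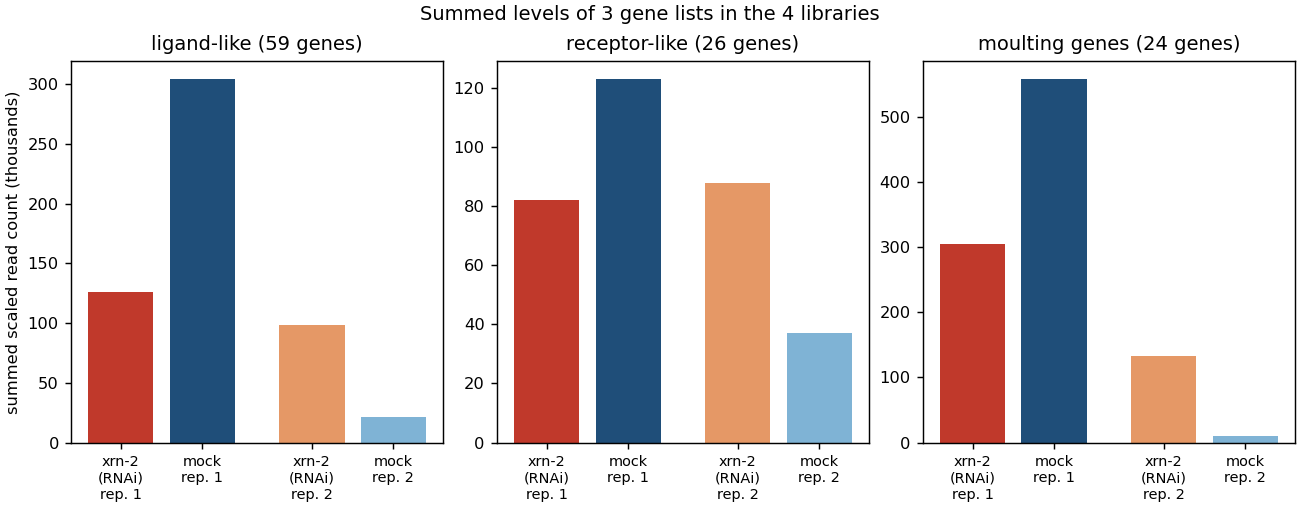
Summed scaled read counts (each axis unit stands for 1000 reads) of the 59 ligand-like genes, the 26 receptor-like genes and a list of 24 moulting genes in each library, as bars from 0, with *xrn-2(RNAi)* left of mock within each replicate. In all 3 panels mock replicate 1 is the highest bar and mock replicate 2 the lowest.

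The spread between the mock libraries ran through most families, but not evenly. On the log2 scale of scaled reads plus a pseudocount of 8, 43 of the 85 members were at least 2-fold lower in mock replicate 2 than in mock replicate 1, against 14.4% of all genes in the table. A difference of at least 16-fold in that direction was found for 30 members, of which 21 were ligand-like and 9 receptor-like, against 2.54% of all genes. A further 10 members were at least 2-fold higher in mock replicate 2 (8.18% of all genes), 8 of them ligand-like. The median log2 difference, mock replicate 2 over mock replicate 1, was -1.99 over the 50 tested ligand-like genes and -1.76 over the 26 receptor-like genes, beside -0.16 over all 16178 tested genes. Between the libraries labelled *xrn-2(RNAi)* the medians, replicate 2 over replicate 1, were -0.37, -0.08 and 0.08 for the same 3 sets. There, 16 members were at least 2-fold higher (7.74% of all genes), 16 were at least 2-fold lower (4.96%), and none of the 85 differed by 16-fold or more (0.236% of all genes were that much higher and 0.0% that much lower).

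**Figure D2:**
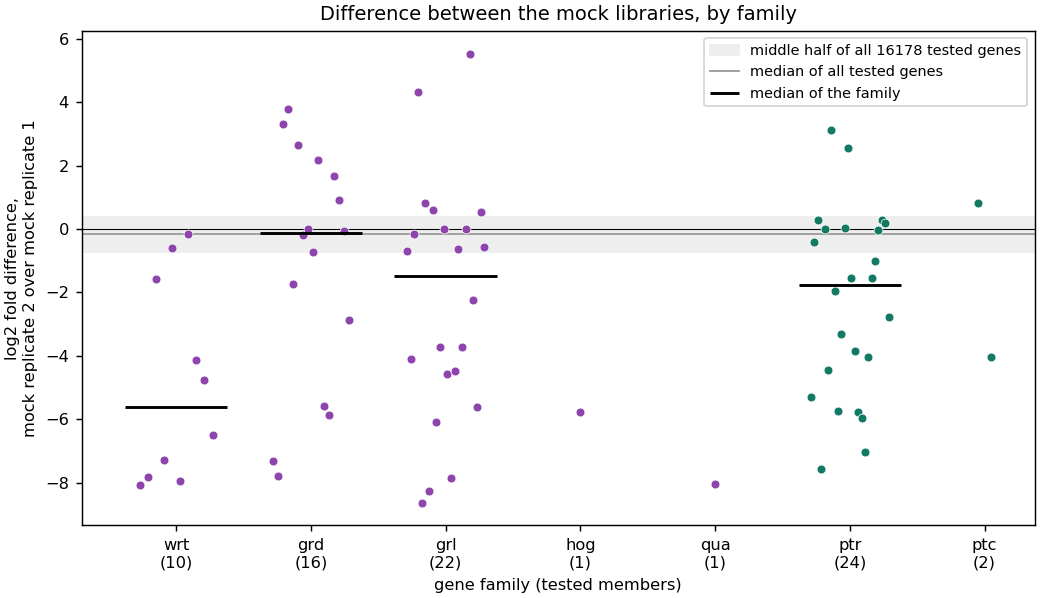
Log2 fold difference of each of the 76 tested members, mock replicate 2 over mock replicate 1, by gene family. Each point is a gene, black bars are family medians, the grey line and band are the median and the middle of the distribution (lower to upper quartile) of all 16178 tested genes. *grl-5* is the lowest point, *qua-1*, *hog-1* and the median of the wrt genes lie far below 0, and the grd genes spread to both sides of 0.

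The warthog genes differed widely between the mock libraries. Together they held 38358 and 18262 scaled reads in *xrn-2(RNAi)*-labelled replicates 1 and 2, against 102861 and 967 in mock, so that mock replicate 2 had 0.94% of the warthog reads of mock replicate 1. Of the 10 wrt genes, 8 were at least 2-fold lower and 7 at least 16-fold lower in mock replicate 2 than in mock replicate 1. Mock replicate 2 was the lowest library for *wrt-6*, *wrt-4* and *wrt-1*, which had the most reads of the family on average over the libraries. *wrt-6* (WBGene00006952) had 10887 and 6804 scaled reads in the libraries labelled *xrn-2(RNAi)*, against 33503 and 127 in mock. *wrt-4* (WBGene00006950) had 6248 and 1637 with *xrn-2* RNAi, against 30520.0 and 186 in mock. For *wrt-1* (WBGene00006947) the values were 6299 and 1442 with *xrn-2* RNAi, against 20794 and 68.7 in mock. In these genes and in *wrt-2* (WBGene00006948), whose promoter is used to mark the seam cells of the epidermis, both libraries labelled *xrn-2(RNAi)* lay between the mock libraries. *wrt-2* had 2660.1 and 417 scaled reads in them, against 8013 and 27.1 in mock.

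*wrt-10* (WBGene00006956), whose neighbour in the WBcel235 annotation is *wrt-1* on the opposite strand, had 6699.9 and 1001 scaled reads with *xrn-2* RNAi, against 6240.1 and 61.4 in mock. Its replicate 1 libraries were nearly level, with a log2 fold change of 0.10, and mock replicate 2 was the lowest. *wrt-5* (WBGene00006951) was the steadiest of the family, with 461 and 502.5 scaled reads with *xrn-2* RNAi and 485 and 315 in mock, which overlapped. *wrt-3* (WBGene00006949) had 57.8 and 60.5 with *xrn-2* RNAi, against 214 and 65.6 in mock, so that mock replicate 1 alone was high and the conditions did not overlap. *wrt-8* (WBGene00006954) was higher in both libraries labelled *xrn-2(RNAi)*, with 3756 and 5330.2 scaled reads, against 796 and 37.5 in mock. *wrt-7*, at low counts, had the same pattern.

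The groundhog genes were split. As a family they summed to 17668 and 25205 scaled reads in the libraries labelled *xrn-2(RNAi)*, against 34399 and 12181 in mock. Of the 16 grd genes, 6 were at least 2-fold lower and 5 at least 2-fold higher in mock replicate 2 than in mock replicate 1, and the family median of that log2 difference was -0.12. *grd-5* and *grd-2* had the highest mean scaled reads of the family over the 4 libraries, without correction for length, but not in each library. *grd-5* (WBGene00001694) had 6318 and 9743 scaled reads with *xrn-2* RNAi, against 10753 and 3226 in mock. *grd-2* (WBGene00001691) had 4500.0 and 4081 with *xrn-2* RNAi, against 8689.6 and 31.2 in mock. Mock replicate 2 was the lowest library for both, but by 3.33-fold against mock replicate 1 for *grd-5* and by 222-fold for *grd-2*, on the scale with the pseudocount.

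A second set of grd genes was highest in mock replicate 2. *grd-3* (WBGene00001692) had 369 and 229 scaled reads with *xrn-2* RNAi, against 389 and 3983 in mock. *grd-10* (WBGene00001699), whose promoter also serves as a seam cell marker, had 71.3 and 65.6 with *xrn-2* RNAi, against 217 and 1009 in mock. *grd-13* (WBGene00001702) had 124 and 52.5 with *xrn-2* RNAi, against 155 and 517 in mock. In all 3 genes both libraries labelled *xrn-2(RNAi)* were below both mock libraries. Among the genes of the table these 3 lie next to each other on the same strand in the WBcel235 annotation, in the order *grd-13*, *grd-3*, *grd-10*. *grd-4*, which lies elsewhere, beside *grd-14*, was also highest in mock replicate 2, and its conditions overlapped. It had 2.7 and 25.2 scaled reads with *xrn-2* RNAi, against 1.1 and 116.6 in mock. Other seam cell genes were not ordered like *grd-10*. *egl-18* had 324 and 486 scaled reads with *xrn-2* RNAi, against 365 and 299.8 in mock, and *elt-6* had 164 and 143 against 174 and 64.5. The seam cell list summed to 568 and 699 scaled reads with *xrn-2* RNAi, against 758 and 1376 in mock, but *grd-10* is itself in that list and gave 1009 of the reads of mock replicate 2.

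The ground-like genes held 43993 and 41641 scaled reads in the libraries labelled *xrn-2(RNAi)*, against 107215 and 7979 in mock. In mock replicate 1 most of these reads came from *grl-7*, *grl-16* and *grl-5*. *grl-7* (WBGene00001716), which encodes a protein of the apical extracellular matrix, had 12419 and 5474 with *xrn-2* RNAi, against 34321 and 104.1 in mock. *grl-16* (WBGene00001725) had 15985 and 20548 with *xrn-2* RNAi, against 24216 and 1069 in mock. *grl-5* (WBGene00001714) had 7833 and 4277 scaled reads with *xrn-2* RNAi, against 25638 and 56.2 in mock. With the pseudocount, its fold difference between the mock libraries was the largest among members with a mean of at least 50 scaled reads. Mock replicate 1 was the highest and mock replicate 2 the lowest library for all 3. The same order held in a pair of genes with fewer reads, known from tube-forming and glial cells. *grl-2* (WBGene00001711), of the excretory duct and pore, had 122 and 41.4 scaled reads with *xrn-2* RNAi, against 292 and 9.4 in mock. *grl-18* (WBGene00001727), of the socket glia, had 143 and 78.7 with *xrn-2* RNAi, against 196 and 7.3 in mock.

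Other grl genes ran the opposite way between the mock libraries. *grl-21* (WBGene00001730), known as a ligand-like regulator of lipid and mitochondrial state together with *ptr-24*, had 121 and 1282 scaled reads with *xrn-2* RNAi, against 83.0 and 4202 in mock. *grl-4* (WBGene00001713) had 588 and 7285 scaled reads per kilobase of exon with *xrn-2* RNAi, against 122 and 2643 in mock. Both replicate 2 libraries exceeded both replicate 1 libraries in each gene, and these were the only members at least 16-fold higher in mock replicate 2 than in mock replicate 1 (1.12% of all genes).

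*qua-1* (WBGene00004264), the single quahog gene, encodes a Hog-domain protein needed for moulting, and had the highest mean scaled reads of the ligand-like members over the 4 libraries, without correction for length, though not the highest in either replicate 2 library. Its scaled reads were 25464 and 12514 with *xrn-2* RNAi, against 57859.8 and 212 in mock. *hog-1* (WBGene00001984) had 753 and 548 with *xrn-2* RNAi, against 1724 and 23.9 in mock. Both showed the order of *wrt-1*, *wrt-2*, *wrt-4* and *wrt-6*, with mock replicate 1 highest and mock replicate 2 lowest.

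Among the receptors, the Patched homologs differed from each other. *ptc-3* (WBGene00004210), an epidermal Patched needed for growth and moulting, had 14813 and 12729 scaled reads with *xrn-2* RNAi, against 31437 and 1927 in mock, so that both libraries labelled *xrn-2(RNAi)* lay between the mock libraries. *ptc-1* (WBGene00004208), which acts in the cytokinesis of the germline, had 11829.7 and 20749 with *xrn-2* RNAi, against 8212 and 14577 in mock. Within each replicate *ptc-1* was slightly higher in the library labelled *xrn-2(RNAi)*, with log2 fold changes of 0.53 and 0.51, but the conditions overlapped. The germline list summed to 65809.9 and 89283 scaled reads with *xrn-2* RNAi, against 36656 and 80768 in mock. This sum had the same order of the libraries as *ptc-1*, but of the 6 genes only *glp-1* and *gld-1* had it. *pgl-1* and *pgl-3* were highest in mock replicate 2. *htp-3* and *him-3* were higher in both libraries labelled *xrn-2(RNAi)* than in both mock libraries. The part of the germline in the *ptc-1* values was not tested.

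The ptr genes summed to 55422 and 54416 scaled reads in the libraries labelled *xrn-2(RNAi)*, against 83242 and 20601 in mock. Members with roles in the epidermis and in glia were ordered in the same way. *ptr-4* (WBGene00004219), needed for the extracellular matrix that precedes the cuticle, had 13278 and 7542 with *xrn-2* RNAi, against 19376 and 94.7 in mock. *ptr-18* (WBGene00004232), which acts in the epidermis and limits extracellular GRL-7, had 6556 and 5120.3 with *xrn-2* RNAi, against 15098 and 107 in mock. *ptr-10* (WBGene00004224), a marker gene of glia, had 936 and 206 with *xrn-2* RNAi, against 1205 and 14.6 in mock. The libraries of these 3 genes were ordered like those of *qua-1*. The glial list, of which *ptr-10* is part, summed to 2888 and 1862 scaled reads with *xrn-2* RNAi, against 4347 and 2068 in mock. None of the other genes found from that list was ordered like *ptr-10*. *vap-1* had 866 and 414 with *xrn-2* RNAi, against 1748 and 878 in mock. *delm-1*, at low counts, had 36.1 and 23.2 against 3.2 and 14.6. *fig-1* and *kcc-3* stayed within 2-fold between any of the libraries.

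*ptr-24* (WBGene00004238) was nearly level in the 4 libraries, with 3702 and 3399 scaled reads with *xrn-2* RNAi, against 3559 and 4020.3 in mock, while *grl-21*, with which it is studied, spanned the range given above. *ptr-8* (WBGene00004222) had 466 and 1076 with *xrn-2* RNAi, against 240.4 and 2137 in mock, with both replicate 2 libraries the higher ones. *ptr-23* (WBGene00004237), known from a suppressor screen for osmotic resistance, had 2674 and 6921 with *xrn-2* RNAi, against 1509 and 1859 in mock. It was higher in both libraries labelled *xrn-2(RNAi)* than in both mock libraries.

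**Figure D3:**
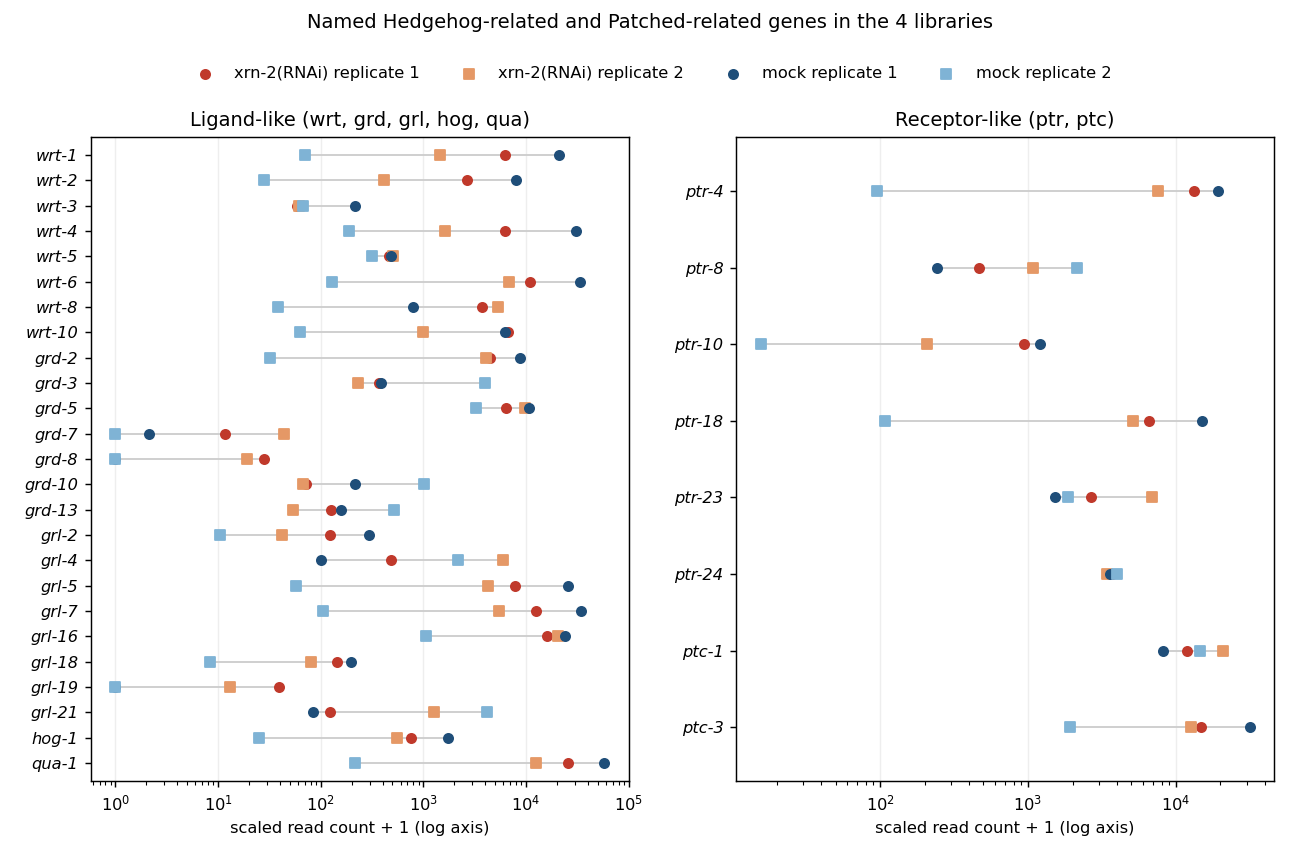
Scaled read counts plus 1, on a log axis, of the 25 ligand-like and 8 receptor-like genes named by the rule, in the 4 libraries; red and orange are *xrn-2(RNAi)* replicates 1 and 2, dark and light blue are mock replicates 1 and 2. For many genes the blue points are the ends of the line and the red and orange points lie between them, while *ptr-24* and *wrt-5* show little spread.

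Reads per kilobase of exon, which allow levels of different genes to be set side by side, put different members first in each library. In *xrn-2(RNAi)*-labelled replicate 1, *grd-5* (12058), *grl-7* (10454) and *grl-16* (9515) led in scaled reads per kilobase. In *xrn-2(RNAi)*-labelled replicate 2 the first 3 were *grd-5* (18594), *grl-16* (12231) and *grd-14* (10639.8). Mock replicate 1 was led by *grl-5* (29068), *grl-7* (28889.97) and *grd-5* (20521), and mock replicate 2 by *grl-21* (6226), *grd-5* (6157) and *grd-3* (5764). *grd-5* was thus among the first 3 in all 4 libraries. Receptor-like genes stood lower per kilobase: the highest were *ptr-4* (4254) and *ptc-1* (4087) in *xrn-2(RNAi)*-labelled replicates 1 and 2, and *ptc-3* (7057) and *ptc-1* (2871) in mock replicates 1 and 2.

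Fold changes of *xrn-2(RNAi)* over mock within a replicate, which rest on 1 library per condition and have no test, had opposite signs in the replicates for many members. In replicate 1, 21 of the 85 members were at least 2-fold lower with *xrn-2* RNAi (5.25% of all genes), 16 were at least 2-fold higher (10.7%), and no member differed by 16-fold upwards (0.412%) or downwards (0.054%). In replicate 2, 58 members were at least 2-fold higher (19.3% of all genes), 15 of them by at least 16-fold (2.39%), and 6 were at least 2-fold lower (5.08%), with *grd-3* lower by at least 16-fold (0.201%). A total of 18 members, among them *wrt-1*, *wrt-2*, *wrt-4*, *wrt-6*, *hog-1*, *qua-1*, *grl-5*, *grl-7*, *ptr-18* and *ptc-3*, combined a level at least 2-fold lower in replicate 1 with one at least 2-fold higher in replicate 2 (1.43% of all genes). No member had the reverse combination (0.422%).

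Over the 50 tested ligand-like genes the median log2 fold change was -0.42 (replicate 1) and 2.48 (replicate 2), and over the 26 receptor-like genes -0.34 and 2.14. All 16178 tested genes had medians of 0.17 and 0.37. TMM scaling moved the median of all genes to 0.01 in both replicates, and the member medians then were -0.57 and 2.26 (ligand-like) and -0.51 and 1.79 (receptor-like), with the same signs. The 2 groups of genes differed little in these medians over the tested genes. Over members with a mean of at least 50 scaled reads, the ligand-like medians, -0.84 and 3.18, lay farther out than the receptor-like ones, -0.32 and 2.17. Among the tested genes the wrt genes, with -1.22 in replicate 1 and 3.60 in replicate 2, lay farther out than the ptr genes, with -0.34 and 2.14. The sign went with the mock library used: *xrn-2(RNAi)*-labelled replicate 2, set against mock replicate 1 in place of its own mock, gave medians of -0.92 over the ligand-like and -0.18 over the receptor-like genes. In that comparison 25 of the 85 members were higher by 2-fold or more (20.2% of all genes) and 36 lower by as much (10.5%). A total of 2 members were higher by 16-fold or more (1.92%), and 3 members were lower by 16-fold or more (0.437%).

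**Figure D4:**
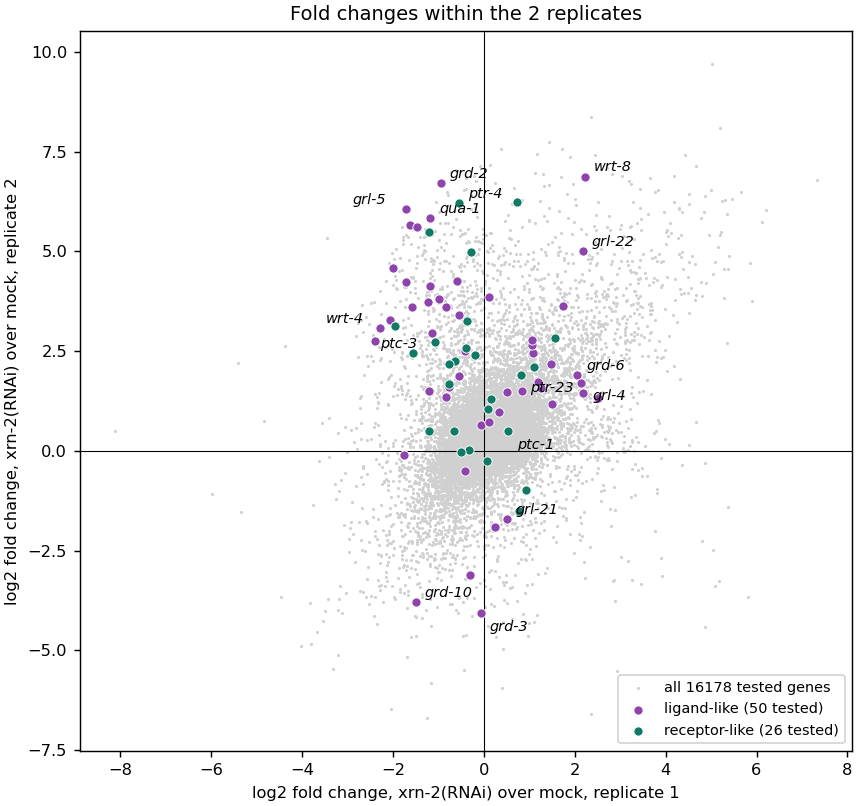
Log2 fold change, *xrn-2(RNAi)* over mock, in replicate 1 (x axis) and replicate 2 (y axis) of all 16178 tested genes (grey), the 50 tested ligand-like genes (purple) and the 26 receptor-like genes (green). Many members, among them *qua-1* and *ptr-4*, lie in the upper left, *wrt-8* and *grl-22* lie in the upper right and *grd-10* in the lower left.

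No gene of the table, and so no member, passed the test of the condition. The block leaves few residual degrees of freedom in 4 libraries, so the lack of calls does not show that the members were unchanged. With all 4 libraries and the replicate as a block, edgeR's quasi-likelihood test called 0 of 16178 genes and 0 of the 76 tested members at an adjusted p under 0.05. At an unadjusted p under 0.05, 15 tested members were higher with *xrn-2* RNAi (6.66% of tested genes) and 1 was lower (5.83%). DESeq2, run on the same genes, called 17 members higher (8.07% of tested genes) and 1, *grd-10*, lower (8.9%). Of the 17, 14 were ligand-like and 3 receptor-like. Both the 15 and the 17 include *wrt-7*, *grd-7*, *grd-8*, *grd-9*, *grl-13* and *grl-19*. These passed the filter on low counts only through the libraries labelled *xrn-2(RNAi)*, where they were higher, and therefore had to differ. *grl-1*, also in both counts, had 19 and 9 reads in mock replicates 1 and 2 and could not have passed on its mock reads alone. Without mock replicate 2 edgeR again called none after adjustment, and at an unadjusted p under 0.05 it had 8 members higher (9.31% of genes tested there) and 23 lower (8.1%). Without mock replicate 1 it called none either, with 44 members higher (12.3%) and 6 lower (5.74%) at an unadjusted p under 0.05. Which mock library was kept thus decided which direction was the more frequent one.

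The replicate term of the same edgeR fit also called 0 of 16178 genes and 0 members. At an unadjusted p under 0.05, 8 members were higher in replicate 2 (5.27% of tested genes) and 4 were lower (4.04%), while DESeq2 called 8 members higher (8.0%) and 11 lower (6.84%) at an adjusted p under 0.05. *qua-1* had a log2 fold change of 2.06 ± 2.87 with *xrn-2* RNAi in edgeR's fit (SE, adjusted p = 0.844), while the mock libraries differed by 263-fold on the scale with the pseudocount. For *ptc-3* the edgeR value was 0.55 ± 1.16 (SE, adjusted p = 0.903). *ptc-1*, whose within-replicate fold changes were alike, had 0.25 ± 0.28 (SE, adjusted p = 0.804 in edgeR).

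Other members had the same direction in both replicates. There were 16 genes at least 2-fold higher in both libraries labelled *xrn-2(RNAi)* than in their own mock (6.17% of all genes), namely *wrt-7*, *wrt-8*, *grd-6* to *grd-9*, *grl-1*, *grl-3*, *grl-4*, *grl-13*, *grl-17*, *grl-19*, *grl-22*, *grl-27*, *ptr-3* and *ptr-22*. *grd-10* was the single member at least 2-fold lower in both (1.76%). Without regard to size, both libraries labelled *xrn-2(RNAi)* were above both mock libraries in 21 of the 85 members (32.3% of all genes) and below both in 4 (9.28%), which were *wrt-3*, *grd-3*, *grd-10* and *grd-13*.

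Most of the 16 genes had low counts. *wrt-8* was an exception, with log2 fold changes of 2.23 in replicate 1 and 6.88 in replicate 2 and 4.35 ± 1.58 in edgeR's fit (SE, adjusted p = 0.421). *grl-4*, which also differed widely between the replicates, had log2 fold changes of 2.19 and 1.46 and an edgeR value of 1.59 ± 0.36 (SE, adjusted p = 0.285). *grd-6* (582 and 3335 scaled reads with *xrn-2* RNAi, against 134 and 894 in mock) lies outside the rule for named genes and was added after its values were seen, because it had the lowest edgeR p of the members: its log2 fold change was 1.73 ± 0.29 (SE, unadjusted p = 0.00562, adjusted p = 0.254).

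*grd-8* (WBGene00001697) had 27.1 and 18.2 scaled reads in the libraries labelled *xrn-2(RNAi)* and no read in either mock library. Set against a floor of 3 counts per mock library, it was at least 8.48-fold (replicate 1) and at least 5.82-fold (replicate 2) higher. *grl-19* (WBGene00001728) had 37.9 and 12.1 with *xrn-2* RNAi, again with no read in mock, which makes it at least 11.9-fold and at least 3.88-fold higher. *grd-7* (WBGene00001696) had 10.8 and 42.4 with *xrn-2* RNAi, against 1.1 and 0.0 in mock. All 3 passed the filter through the libraries labelled *xrn-2(RNAi)* alone, so their test results are not given. The bounds cover counting error only. In the WBcel235 annotation, exons of these genes overlap a gene on the opposite strand over 0.92% (*grd-8*), 3.24% (*grl-19*) and 1.75% (*grd-7*) of their length. Whether counting used the strand is not given, so reads of those genes may be among these low counts. *ptr-23* had a log2 fold change of 1.09 ± 0.33 (SE, adjusted p = 0.358 in edgeR).

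On the lower side, *grd-10* had log2 fold changes of -1.50 in replicate 1 and -3.79 in replicate 2 and an edgeR value of -3.04 ± 0.86 (SE, adjusted p = 0.340). *grd-3* had -0.07 and -4.07, so that its difference came from replicate 2, in which mock was high. *grd-13* had -0.31 and -3.12. *wrt-3* was lower in replicate 1 (-1.75) and nearly level in replicate 2 (-0.10).

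**Figure D5:**
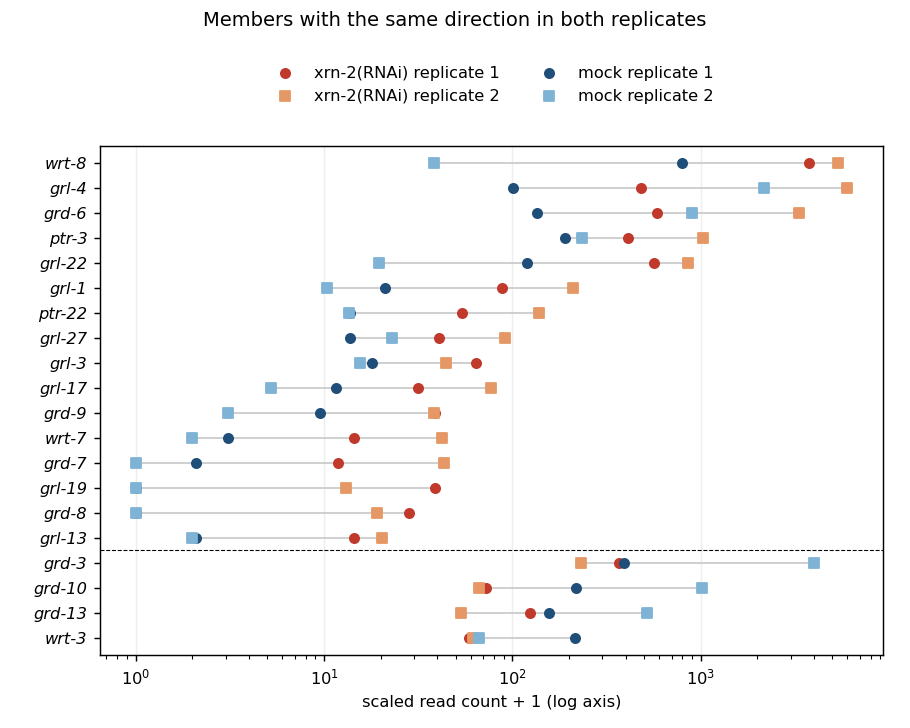
Scaled read counts plus 1, on a log axis, of the 16 members at least 2-fold higher in both libraries labelled *xrn-2(RNAi)* than in their own mock (above the dashed line) and of the 4 members below both mock libraries (below it). Red and orange are *xrn-2(RNAi)* replicates 1 and 2, dark and light blue are mock replicates 1 and 2; *wrt-8*, *grl-4*, *grd-6* and *ptr-3* have the most reads in *xrn-2(RNAi)* replicate 2 above the line.

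Members that stayed within 2-fold of mock in both replicates numbered 19 of 85, beside 69.4% of all genes. They include the 9 untested grl genes, for which the pseudocount of 8 leaves little room for a 2-fold difference. The tested ones were *wrt-5*, *grd-15*, *grl-6*, *grl-8*, *ptc-1*, *ptr-5*, *ptr-8*, *ptr-9*, *ptr-12* and *ptr-24*. Of these, *ptr-5* had 431 and 547 scaled reads with *xrn-2* RNAi, against 540.3 and 541 in mock, and *ptr-12* had 536 and 1251 against 854 and 881.

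A list of 13 genes outside the symbol rule was followed as well, all of which were tested. It held homologs of genes of the Hedgehog pathway in other animals, and genes of other proteins with a sterol-sensing domain. The 13 genes summed to 42127 and 37479 scaled reads in the libraries labelled *xrn-2(RNAi)*, against 63196 and 19815 in mock. At an adjusted p under 0.05 edgeR called 0 of the 13, as did DESeq2, with 0 at an unadjusted p under 0.05 in edgeR. Of the 13, 7 were at least 2-fold lower in mock replicate 2 than in mock replicate 1. The 7 included the Dispatched homologs, which export lipid-modified Hedgehog in other animals. *che-14* had 1153 and 564 with *xrn-2* RNAi, against 2778 and 104.1 in mock, and *ptd-2* had 50.5 and 40.4 against 103 and 34.4. *hhat-1*, a homolog of the acyltransferase that modifies Hedgehog, had 2916 and 1021 with *xrn-2* RNAi, against 6371 and 32.3 in mock. The others were *hhat-2*, the Patched-related glial gene *daf-6*, the megalin homolog *lrp-1* and the GAS1 homolog *phg-1*.

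The downstream genes of the pathway in other animals were steadier. *tra-1*, the GLI homolog, which controls sex determination in this species, had 1807 and 3110.1 scaled reads with *xrn-2* RNAi, against 1689 and 2564 in mock. *gsk-3* had 4262 and 4890.3 against 3689 and 4321, and *kin-1*, the catalytic subunit of protein kinase A, had 5867 and 6963 against 6337 and 6298. The sterol-sensing genes *ncr-1*, *ncr-2* and *scp-1* also stayed within 2-fold between the mock libraries.

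Moulting genes moved with the members. A list of 24 genes for the moulting cycle, among them cuticle collagens and the proteases and matrix proteins of the moult, summed to 304457 and 133190.3 scaled reads in the libraries labelled *xrn-2(RNAi)*, against 558351 and 10629.6 in mock, so that mock replicate 2 held 1.90% of the level of mock replicate 1. Of the 24, 23 were at least 2-fold lower in mock replicate 2 than in mock replicate 1, with *nhr-23*, a nuclear receptor that drives the moult, as the exception (3815 and 2846 scaled reads with *xrn-2* RNAi, against 2374 and 2855 in mock). Their median log2 fold change, *xrn-2(RNAi)* over mock, was -0.77 (replicate 1) and 3.67 (replicate 2), and 19 of the 24 were lower in replicate 1 and higher in replicate 2. Of the members, 40 of 85 had that combination at any size (22.4% of all genes). edgeR called 0 of the 24 for the condition (2 at an unadjusted p under 0.05), and DESeq2 called 1 higher and 1 lower. The 6 epidermal markers summed to 11538 and 5295 scaled reads with *xrn-2* RNAi, against 16251 and 5433 in mock, with *dpy-7* and *che-14*, which the other lists also hold, among those lower in mock replicate 2. *nhr-23* and *elt-3* were not lower there (*elt-3* had 634 and 371 with *xrn-2* RNAi, against 1248 and 1861 in mock), and *elt-1* was nearly level between the mock libraries (690.3 and 665 with *xrn-2* RNAi, against 568 and 528 in mock). The part of the moulting phase and of the epidermal share in the members' values was not tested, and the condition and the difference in stage within replicate 2 cannot be told apart.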

How the data were processed

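Poly(A) libraries of N2 animals were aligned by the authors to ce10 with qAlign of QuasR, with spliced alignment, and reads were counted per WS220 gene. The deposited values are raw counts per gene and library for 20380 genes, of which 1046 had no read. Whether counting used the strand is not given in the sources used here, so reads of overlapping antisense genes cannot be told apart. Samples were grouped by their titles. Symbols came from the naming table of WBcel235, which matched 19179 identifiers, and exon lengths, by identifier, from its annotation, for all 85 members. As this is not the build of the files, no coordinates are given.

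Counts were scaled to the mean total of 43719995, and within-replicate log2 fold changes used a pseudocount of 8, as in the study's methods. Genes were tested two-sided with edgeR 4.0.16 in R 4.3.3 (glmQLFit, glmQLFTest, TMM, filterByExpr, Benjamini-Hochberg adjustment over all tested genes), with the replicate number as a block, following the within-replicate fold changes of the methods. SEs were computed as |log2 fold change| over the root of F. Same-numbered libraries deviated together (r = 0.57 over 16178 genes, which are not independent). The scripts were tested on simulated data. Alternatives were DESeq2 1.42.0, no block, other scalings, pseudocounts and filters, and libraries left out, of which leaving out single mock libraries and pairing *xrn-2(RNAi)* replicate 2 with mock replicate 1 were chosen after seeing the data. No exact permutation test was run, since 2 against 2 libraries allow no two-sided p below 0.333.

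Total counts were 41105706 to 48451504 per library, with a median of 182 to 319 reads per gene. Members, lists and named genes were chosen with earlier results of these data known. Named genes were the 2 most abundant of wrt, grd, grl and ptr, all of hog, qua and ptc, the 4 highest and 4 lowest edgeR fold changes with the same sign in both replicates, the 4 largest differences between the mock libraries in each direction, and 13 genes with a studied role. *grd-4*, *grd-6*, *grd-14*, *grl-1*, *ptr-5* and *ptr-12* lie outside this rule and were added after their values were seen.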

Additional observations from a re-analysis of the deposited data

How the results depend on the processing

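The calls depended on the tool: DESeq2 with the replicate block called 2746 genes and 18 members for the condition, and 2400 genes and 19 members for the replicate, where edgeR called none. It made 7 of the 33 named members pass, among them *grd-7*, *grd-8* and *grl-19*, which the filter kept only for their reads with *xrn-2* RNAi, while median-of-ratios scaling, total-count scaling and no filter on low counts changed the call or direction of none of the 33. Without the replicate block edgeR also called none, but the log2 fold change turned negative for 16 of the 33: *wrt-1* -1.62, *wrt-2* -1.57, *wrt-4* -2.15, *wrt-6* -1.13, *grd-2* -0.24, *grd-5* -0.052, *grl-2* -1.08, *grl-5* -1.29, *grl-7* -1.14, *grl-18* -0.078, *hog-1* -0.64, *qua-1* -0.81, *ptr-4* -0.11, *ptr-10* -0.28, *ptr-18* -0.59 and *ptc-3* -0.50. Leaving out a replicate gave medians of -0.42 to 2.48 for the ligand-like and -0.34 to 2.14 for the receptor-like genes. *xrn-2(RNAi)* replicate 2 against mock replicate 1 gave -0.92 and -0.18. The ligand-like median between the mock libraries was -0.66 over members with at least 1 read and -4.32 over those with a mean of at least 50 scaled reads. The receptor-like median over members with that mean was -1.55. Without *qua-1* and *grl-16* the ligand-like sums with *xrn-2* RNAi were 84787.1 and 65108.2. The receptor-like sums there were 77198.4 and 77425.0 with TMM, 77222.4 and 77077.8 with median-of-ratios scaling, and 55422.1 and 54416.5 without *ptc-3* and *ptc-1*. The cause of these shifts was not tested.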

Other observations

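The summed markers of muscle and of neurons differed by less than 2-fold between any of the libraries. Muscle markers summed to 397406 and 360104.9 scaled reads in *xrn-2(RNAi)*-labelled replicates 1 and 2, against 375627 and 485971 in mock, and neuronal markers to 10967 and 11610.1 with *xrn-2* RNAi, against 11422 and 8687 in mock. The sum of the intestinal markers was highest in mock replicate 2, with 51745 and 40798 with *xrn-2* RNAi, against 72915 and 135814 in mock. Most of that sum came from *act-5*, with 93265.5 scaled reads in mock replicate 2. *ifb-2* and *pept-1* were also highest in that library, while *elt-2*, *elt-7* and *ges-1* were lowest in it. Sperm markers summed to 2658 and 2326 with *xrn-2* RNAi, against 1802 and 2058 in mock. edgeR called none of the markers of these 4 cell types for the condition (1 intestinal marker had an unadjusted p under 0.05), and DESeq2 called 2 intestinal markers lower with *xrn-2* RNAi.

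*ptc-1* is annotated as the first gene of an operon with *rev-1*. *rev-1* had 1691 and 1716 scaled reads with *xrn-2* RNAi, against 1023 and 925 in mock, and its log2 fold change was 0.72 in replicate 1 and 0.88 in replicate 2, beside 0.53 and 0.51 for *ptc-1*. The mock libraries differed by 0.83 on the log2 scale for *ptc-1* and by -0.14 for *rev-1*, replicate 2 over replicate 1, so the genes of the pair did not keep a fixed ratio.

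In the WBcel235 annotation, exons of *grd-15* overlap those of *cyn-15* over 16.4% of their length, those of *grl-22* overlap W03A5.1 over 13.2% and those of *grd-12* overlap F02D8.1 over 9.32%, all on opposite strands, so the counts of these members are uncertain. Other members, among them *grd-7*, *grd-8*, *grd-9*, *grl-1*, *grl-3*, *grl-17* and *grl-19*, have smaller overlaps on the opposite strand, which matter most at low counts.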
